A study of Mus musculus with 9 samples.

Results

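The transcripts of exercised mouse gastrocnemius, the large calf muscle, were described in the 5 control libraries of a series of 9. The samples were chosen by their labels alone: all control libraries were taken, and the 4 libraries of the other group, from mice that also carried Cre under the Mck promoter, were not used. The labels give mice of 3 months on a 129/C57/BL6 background, with loxP sites around Gprc6a (Gprc6a.fl/fl) and no Cre, whose muscle was taken after exercise. The exercise protocol, the time since its end, the sex and the time of day are not given, and the labels do not say that each library is a separate animal. With no unexercised muscle in the series, a level measured here is one after exercise, and no change caused by exercise was measured. Per the labels' protocols, only RNA that reached an integrity number of 6.7 was used, and its cDNA was amplified (NuGEN Ovation) ahead of sequencing. Gprc6a, the floxed gene, which encodes an amino acid-sensing receptor, had 0 counts in all 5 libraries, so that a level of up to 0.151 CPM (counts in a library scaled to 1000000) is possible in each.

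Gastrocnemius moves the ankle and, in the mouse, consists mainly of fast fibres. A muscle fibre builds its myofibrils from one of several paralogues of each protein, and fast and slow fibres use different sets. Fast fibres hydrolyse and pump quickly: they use the IIb, IIx and IIa myosins, the fast troponins and the calcium pump SERCA1, and they draw on creatine phosphate, glycogen and glycolysis. Slow fibres use the slow/beta-cardiac myosin, the slow troponins and SERCA2, and depend more on mitochondria. A bulk library also holds RNA of vessels, nerve, fat, tendon and connective tissue. In such a library more cells of a type and more RNA per cell cannot be told apart.

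Total counts were 21666627, 25608659, 24691835, 21531958 and 20401633 in controls 1 to 5. Of 23284 genes in the table, 11461 stood at 1 CPM or more in every library and 5527 had 0 counts in all 5. Some libraries stood apart. Controls 1 and 5 differed most, with a median absolute log2 difference of 0.34 over well-counted genes (mean of at least 10 CPM), against 0.11 for controls 1 and 4, the nearest pair. Their difference moved with transcript length. In control 1, genes with a longest transcript of 6000 bases or more had a median log2 level 0.23 above their mean over the libraries, and genes under 1500 bases one 0.28 below it (log2 of CPM + 1 over the mean CPM + 1). In control 5 the same medians were -0.28 and 0.31. Control 2 carried skin transcripts, described among the markers. No library was a copy of another: comparing the counts of any 2 of them gave a chi-square of at least 14.01 times its degrees of freedom.

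The 10 most abundant genes of each library held 24.5% ± 2.03 of its counts (mean ± SD, n = 5), and the 100 most abundant 47.05% ± 1.85. In controls 1 to 5, 148, 99, 158, 150 and 134 genes held 50% of the counts, so control 2 was the most concentrated library. Myh4, the IIb myosin heavy chain of the fastest fibres, had the highest mean count level, at 46213, 51350.2, 36897, 43692 and 29794 CPM in controls 1 to 5, a mean of 41589 ± 8399.5. It was the first gene in 4 libraries and behind Acta1 and Atp2a1 in control 5. Atp2a1, the fast calcium pump SERCA1, stood at 41026, 50041, 35728, 40594 and 38029.8 CPM and was second in each library. Acta1, skeletal muscle actin, stood at 36312, 45556, 35391, 36554 and 43353 CPM. The order of these 3 means, 41589, 41084 and 39433 CPM, lies within their spread over libraries.

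After these came Ckm, the muscle creatine kinase, at 26491 ± 4106 CPM, Aldoa, the aldolase of muscle glycolysis, at 21394 ± 2564, Tpm1, tropomyosin alpha, at 21358 ± 3083, and Tnnt3, fast troponin T, at 19532 ± 2631. Ckm was the fourth gene in every library. Titin (Ttn), the giant spring of the sarcomere, was the eighth gene by mean at 16788, 9799.5, 9766, 14126 and 8773 CPM, with control 1 highest and control 5 lowest. Tnnc2, fast troponin C, and Pvalb, the calcium buffer parvalbumin, had means of 11211 ± 2346 and 10541 ± 2158 CPM and completed the first 10. The ranks 11 to 25 went to Actn3, Pygm, Mylpf, Rn45s, Tnni2, Eno3, Mybpc2, Tpm2, Neb, Ryr1, Pfkm, Pde4dip, Des, Slc25a4 and Casq1, with means from 9419 down to 4123 CPM. All of them but Rn45s, a ribosomal RNA precursor, and Pde4dip, a phosphodiesterase-binding protein, fall in 1 of these groups of fibre proteins: contractile, calcium-handling, glycolytic, cytoskeletal (desmin, Des) or mitochondrial (the nucleotide carrier Slc25a4). Of the first 10 genes by mean, 7 were among the first 10 of every library, and of the first 100, 80 were among the first 100 of every library.

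**Figure D1:**
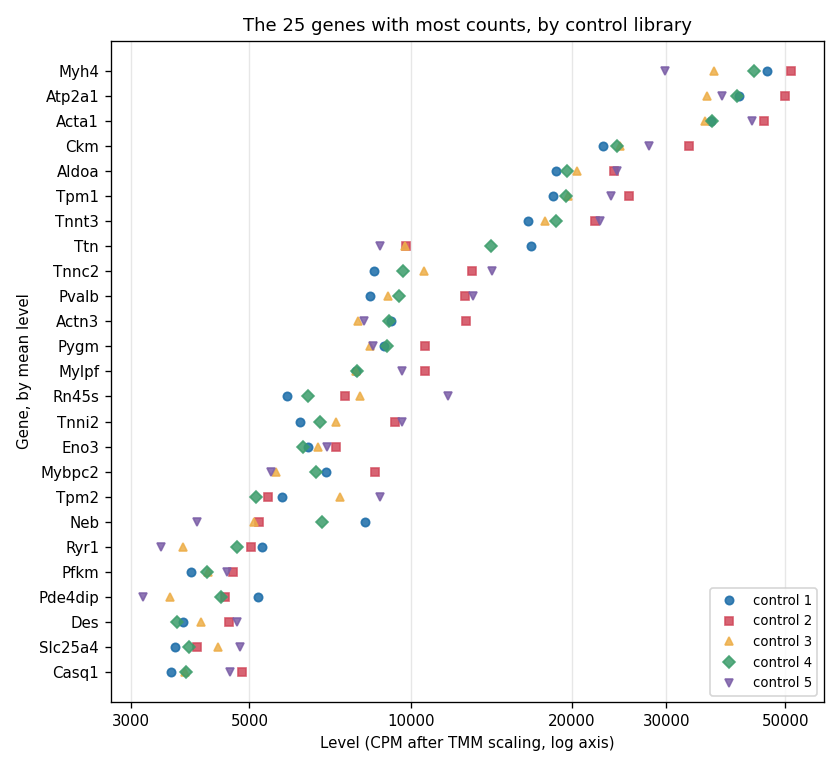
Level of the 25 genes of highest mean CPM in each of the 5 control libraries (x axis, CPM after TMM scaling, log axis; each symbol is 1 library). Most of the highest values lie in controls 2 and 5 (squares and downward triangles), while Ttn, Neb, Ryr1 and Pde4dip, which have long transcripts, lie highest in control 1 and lowest in control 5.

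The ranks so far are ranks of counts, which grow with transcript length. Levels of different genes were compared per length, as counts per base of the longest transcript, scaled so that each library has the same sum (TPM). On that scale Acta1 led every library, at 63654, 68651, 57072, 61271 and 61073 TPM, followed by Tnnt3 at 41297 ± 2528 and Tnnc2 at 36331 ± 4489 TPM. Tnnc2 shares 55% of its 50-base words with the overlapping gene Ube2c, so part of its length may not have been countable. Aldoa was the fourth in all 5 libraries, with a mean of 31533 ± 1339 TPM. The next were Atp2a1 at 27162 ± 3891, Mylpf (the fast regulatory light chain) at 26220 ± 2357, Pvalb at 24503 ± 3059, Tnni2 (fast troponin I) at 23193 ± 2651, Ckm at 22063 ± 2377 and Tpm1 at 16864 ± 1395 TPM. Neighbours in this run from Atp2a1 to Ckm differed by less than their SD. Myh4, first by counts, was the eleventh gene per length at 16013 ± 3847 TPM, and titin the 418th at 259.8 TPM. Eno3 (muscle enolase), Tcap (the titin cap telethonin), Myl1 (the essential light chain of fast myosin) and Actn3 (fast fibre actinin) completed the first 15 with means from 9871 to 7494 TPM. Tcap stood at 6215, 6535, 9698, 8192 and 11574 TPM in controls 1 to 5, so the libraries with high Tcap were 3 and 5. The first 10 by counts and by length-corrected level shared 8 genes, and the first 100 shared 66.

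The proximal promoters of 4 of these genes are shown because they drive the transcripts that lead the ranks: actin, creatine kinase, the fast calcium pump and IIb myosin. Each window runs from 250 bases before to 50 bases after the RefSeq start (GRCm38.p6), 5′ to 3′ on the gene's strand. Capitals mark TATAAA (either strand), CAGCTG (the same on both strands) and the CArG box, a motif of serum response factor.
Acta1, chr8:123894726-123895025, minus strand: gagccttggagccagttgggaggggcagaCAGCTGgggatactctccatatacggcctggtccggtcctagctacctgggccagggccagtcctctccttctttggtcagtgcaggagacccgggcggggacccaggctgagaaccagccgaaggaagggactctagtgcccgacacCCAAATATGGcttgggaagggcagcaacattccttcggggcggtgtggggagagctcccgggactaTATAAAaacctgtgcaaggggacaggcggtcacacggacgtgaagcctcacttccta
Ckm, chr7:19410844-19411143, plus strand: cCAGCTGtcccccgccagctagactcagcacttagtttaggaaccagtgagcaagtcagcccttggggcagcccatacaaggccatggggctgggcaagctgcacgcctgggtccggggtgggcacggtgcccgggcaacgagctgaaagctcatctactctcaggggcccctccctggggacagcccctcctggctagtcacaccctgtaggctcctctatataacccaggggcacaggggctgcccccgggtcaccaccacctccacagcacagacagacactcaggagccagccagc
Atp2a1, chr7:126463024-126463323, minus strand: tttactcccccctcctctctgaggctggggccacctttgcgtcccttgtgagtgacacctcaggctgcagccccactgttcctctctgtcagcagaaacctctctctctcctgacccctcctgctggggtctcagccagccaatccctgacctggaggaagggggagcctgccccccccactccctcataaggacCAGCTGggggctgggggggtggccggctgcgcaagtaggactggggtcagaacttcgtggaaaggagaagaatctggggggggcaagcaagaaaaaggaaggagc
Myh4, chr11:67237562-67237861, plus strand: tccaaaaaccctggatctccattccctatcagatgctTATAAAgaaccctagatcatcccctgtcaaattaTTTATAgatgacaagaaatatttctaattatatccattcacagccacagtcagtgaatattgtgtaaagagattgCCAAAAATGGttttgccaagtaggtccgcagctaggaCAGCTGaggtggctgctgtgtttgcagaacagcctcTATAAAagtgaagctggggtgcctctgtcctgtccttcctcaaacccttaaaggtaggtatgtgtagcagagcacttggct

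All 4 windows hold CAGCTG, a form of the E-box CANNTG that myogenic factors can bind, and those of Acta1 and Myh4 also hold TATAAA and a CArG box. RefSeq windows were at hand for 20 of the 25 most abundant genes, 27 windows in all. CAGCTG was in 11 of those (40.7%), in 29 of 104 windows of 70 of the 100 most abundant genes (27.9%), and in 16.3% of all 32851 windows. Among the 7355 windows of 5637 well-counted genes the share was 15.1%. TATAAA was in 2 of the 27 windows (7.41%), 13.5% of the 104, 7.22% of those of well-counted genes and 13.6% of all. GGGCGG, the GC box (either strand), was in 44.4% of the 27 windows, 51.9% of the 104, 64.5% of those of well-counted genes and 35.7% of all. In the same 4 sets the CArG box was in 7.41%, 7.69%, 1.66% and 1.63%, and CANNTG, which includes CAGCTG, in 85.2%, 80.8%, 62.6% and 72.3%. These are counts of letters in windows, of which some genes have several that overlap, and no binding was measured.

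Genes were placed in 17 functional classes of 1189 genes, each gene in one class, which together held 56.5% ± 1.39 of the counts. Genes of the sarcomere and myofibril, 96 in all, took the largest share at 26.5% ± 0.853 of counts, from 25.7% to 27.9% over the libraries. Genes of calcium release and uptake took 7.56% ± 0.601, of which Atp2a1 alone was 54.2% and Pvalb 13.9%. Glycogen and glycolysis genes took 6.27% ± 0.283, led by Aldoa (33.98% of the class), the glycogen phosphorylase Pygm (14.5%) and Eno3 (10.7%). This share is uncertain, since 11 of the 55 genes share at least 20% of their words with other genes. The level of Gapdh, a gene of glycolysis, cannot be read for the same reason, as described with the reference genes. Aldoa therefore leads only among the glycolysis genes whose levels can be read. Genes named first in a class are those with most counts, which favours long transcripts. The creatine and adenine nucleotide buffer, 16 genes, held 3.25% ± 0.348, of which Ckm was 81.1%. With the 2 mitochondrial classes below, these classes of contraction, calcium and energy made up 49.2% ± 1.57 of all counts in 378 genes.

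Nuclear genes of the respiratory chain and ATP synthase held 3.41% ± 0.5196, with the carrier Slc25a4 and the ATP synthase subunits Atp5b and Atp5a1 in front at 4128, 3546 and 2952 CPM. Mitochondrially encoded genes were not analysed here. The class was 2.88%, 3.17%, 3.69%, 3.13% and 4.18% of counts in controls 1 to 5, and 84 of its 92 well-counted genes were highest in control 5, as were 2585 of the 7684 well-counted genes in all. Its genes are short, with a median longest transcript of 1062 bases against 3302 over all well-counted genes. With each library's trend on transcript length removed, the highest library was 1.12 times the lowest, against 1.52 times before. Ribosomal protein genes behaved alike (1.49 times before and 1.099 after). Genes of the citrate cycle, pyruvate and fatty acid oxidation took 2.21% ± 0.221, with oxoglutarate dehydrogenase (Ogdh, 1355 ± 23.7 CPM) and citrate synthase (Cs, 1083 ± 36.6 CPM) among its most abundant members.

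Classes of protein making and turnover were small, and all but the ribosomal proteins were close to one level in the 5 libraries. Translation factors held 1.11% ± 0.00766 of counts, led by Eef1a2, the elongation factor of adult muscle and nerve, at 2097 ± 179 CPM. Ubiquitin and proteasome genes held 1.397% ± 0.0156, with the muscle ubiquitin ligase subunit Asb2 (737 ± 150.3 CPM) and the conjugating enzyme Ube2b (644 ± 72.5 CPM) in front. Heat shock and folding genes held 0.868% ± 0.05505, with the chaperone Hsp90ab1 at 1523 ± 76.1 CPM in the lead. Ribosomal protein genes held 0.599% ± 0.08196, an uncertain value, since 71 of these 90 genes share at least 20% of their 50-base words with other genes. Rpl4 had the most counts of them at 666 ± 48.4 CPM, and Rpl3l, the form of Rpl3 in striated muscle, which shares no word, came next at 583 ± 48.7 CPM.

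Collagen and matrix genes held 0.9796% ± 0.146 of counts, with Col1a2, Dcn and Col1a1 at 812, 627 and 623 CPM. Immediate early genes, which respond within minutes to activity and stress in many tissues, held 0.667% ± 0.07497. Nr4a1, an orphan nuclear receptor, had the most counts at 812, 907, 951, 945 and 1088 CPM, and Fos, Btg2 and Egr1 followed with means of 534, 465 and 443 CPM. Long non-coding RNAs held 0.227% ± 0.0274, of which the imprinted H19 was 52.9% at 1206 ± 236 CPM and Neat1 26.8%. Lipid synthesis and fat droplet genes held 0.638% ± 0.162, mostly Car3, carbonic anhydrase of muscle and fat. Genes in no class held 43.5% ± 1.39.

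**Figure D2:**
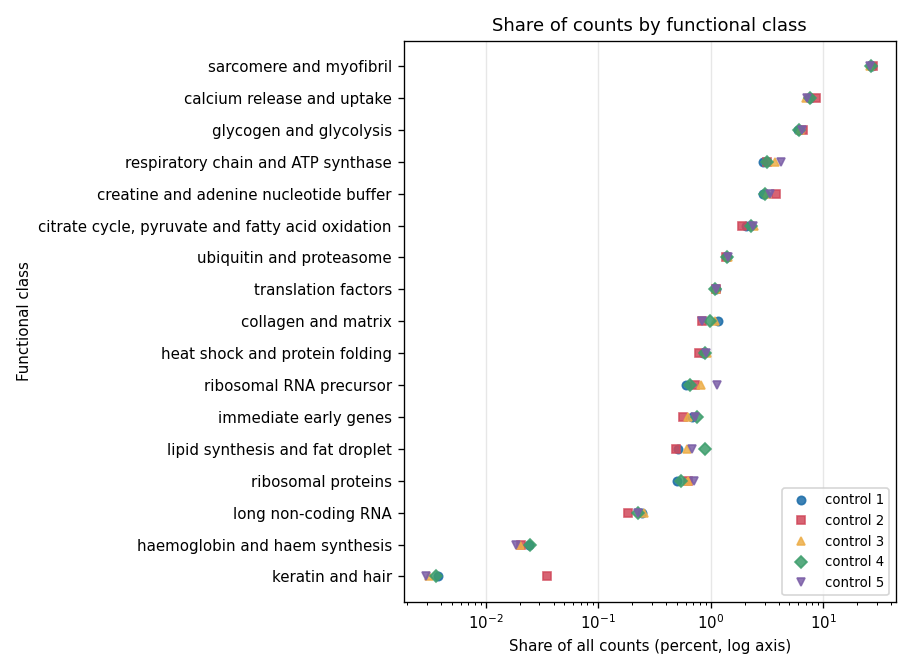
Share of all counts (x axis, percent, log axis) in 17 functional classes, with 1 symbol per control library. The libraries nearly coincide in the largest classes; the spread is widest in keratin and hair genes, at 0.0352% in control 2 and at most 0.00373% in the others, and lipid genes are highest in control 4.

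Which paralogue led in the muscle's RNA was read from the per-length share of each member in its family. The shares cover all cells of the sample. Fabp4, for 1, which fat cells also make, held 70.2% ± 8.76 of the fatty acid binding proteins. In 50 of 51 families the same member led in all 5 libraries, and in 23 families it held at least 90% of the family. In the myosin heavy chains Myh4 held 82.2% ± 3.53 (79.1% to 87.9%). Myh2 (IIa) held 6.83% ± 1.599, Myh1 (IIx) 6.22% ± 1.102 and the slow Myh7 3.36% ± 0.885. The fast myosins share long stretches (32.1% of the words of Myh1 occur in other genes, mainly Myh2 and Myh4), so reads in them may have been lost or misplaced, and the shares of Myh1 and Myh2 are uncertain. Counting only words found in no other gene, Myh4 held 80.1%.

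Actin and the troponins were nearly pure. Acta1 held 96.6% ± 0.482 of the actins, ahead of Actc1, the heart actin, at 2.24% ± 0.383. Tnnt3 held 96.3% ± 1.32 of troponin T, Tnni2 95.8% ± 1.49 of troponin I and Tnnc2 94.6% ± 1.81 of troponin C, and the slow Tnnt1, Tnni1 and Tnnc1 held the rest but for traces. Tropomyosin, also of the thin filament, was mixed, at 69.1% ± 5.19 Tpm1 and 27.8% ± 4.496 Tpm2 (beta), with 2.78% ± 0.785 for the slow Tpm3, of whose words 62.4% are shared with other genes. Of the light chains, Mylpf held 91.6% ± 2.95 and Myl1 75.4% ± 5.75, against 8.37% ± 2.95 for Myl2 and 24.3% ± 5.74 for Myl3, the slow and cardiac forms.

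In families of the thick filament, the M-band and the Z-disc the first member held from 54.7% (Myom2) to 87.2% (Flnc). Mybpc2, fast myosin-binding protein C, held 71.7% ± 4.44 and the slow Mybpc1 28.3% ± 4.44. The M-band protein genes Myom2 and Myom1 held 54.7% ± 1.23 and 42.7% ± 1.59, and Myom2 led in each library. Actn3 held 82.8% ± 4.43 of the actinins, beside 16.6% ± 4.33 for Actn2, which all fibres use. Myoz1, a calcineurin-binding Z-disc protein of fast fibres, held 81.5% ± 3.32, and Flnc, the muscle filamin, 87.2% ± 0.9996. Fhl1 held 89.5% ± 3.38 of the FHL proteins, which bind signalling and contractile partners through LIM domains.

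In calcium handling Atp2a1 held 96.6% ± 1.16 of the SERCA pumps, Casq1 98.5% ± 0.345 of calsequestrin, the calcium store protein, and Ryr1 all but traces of the ryanodine receptors (38 counts in all for the heart form Ryr2). The junctophilins, which tie the reticulum to the surface membrane, were mixed, with 66.8% ± 4.64 Jph2 and 33.2% ± 4.63 Jph1. Among the micropeptides that bind SERCA, 2310015B20Rik, the table's name for the myoregulin gene, held 78.4% ± 8.13, sarcolipin (Sln) 19.7% ± 8.08 and phospholamban (Pln) 1.88% ± 0.2396. Sln had 18.1, 19.7, 48.7, 27.4 and 58.6 CPM, high in controls 3 and 5. Its per-length share ranged from 10.8% to 29.5%.

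In energy supply, too, 1 member usually led. Pygm held 99.8% ± 0.106 of glycogen phosphorylase, Pfkm 99.5% ± 0.0571 of phosphofructokinase, Hk2 93.6% ± 1.36 of the hexokinases, Slc2a4 (the insulin-regulated glucose transporter GLUT4) 96.1% ± 0.365 and Slc25a4 98.5% ± 0.167 of the nucleotide translocases. Ckm held 91.7% ± 1.79 and the mitochondrial Ckmt2 8.25% ± 1.78 of creatine kinase. Aldoa, Eno3 and Pgam2 each held over 99% of their families, but Eno1 (72.2%) and Pgam1 (41.5%) share so many of their words with other genes that their levels, near 0 here, are uncertain, and with them those 2 shares. Ldha held 84.8% ± 3.41 of lactate dehydrogenase, against 15.2% ± 3.41 for the heart form Ldhb. The lactate transporters were Slc16a3 at 77.6% ± 4.204 and Slc16a1 at 22.3% ± 4.18.

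Subunits with muscle forms showed them. Cox6a2 held 96.2% ± 0.774, Cox8b 92.6% ± 1.14 and Cox7a1 57.9% ± 1.38 of their cytochrome oxidase subunits, and Eef1a2 85.2% ± 1.44 of elongation factor 1A. The other member, Eef1a1, shares 60.6% of its words, and on unshared words Eef1a2 held 69.3%. The energy sensor AMPK was made up of Prkaa2 (89.3% ± 1.42 of alpha), Prkab2 (90.2% ± 2.97 of beta) and Prkag3 (61.5% ± 5.998 of gamma, with 35.4% ± 5.73 for Prkag1). On unshared words Prkag3 held 53.3%. Atp1b2 held 59.01% ± 5.22 of the beta subunits of the sodium pump. Scn4a held 99.9% ± 0.0338 of the sodium channels listed. Of the acetylcholine receptor subunits, the adult Chrne held 31.1% ± 2.69 and Chrnb1 44.8% ± 2.87.

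Among regulators some families were divided and others led by 1 member. The kinases that switch off pyruvate dehydrogenase were Pdk2 at 59.5% ± 6.89 and Pdk4 at 37.3% ± 6.98. The share of Pdk4 ranged from 29.5% to 48.1%, and its level was 548, 569, 631, 1004 and 916 CPM in controls 1 to 5, so controls 4 and 5 were high. With the median instead of the longest transcript length the order turned, to 47.2% Pdk2 and 50.3% Pdk4. In the PGC-1 coactivators of mitochondrial genes Ppargc1a held 47.1% ± 8.51, Pprc1 35.6% ± 4.92 and Ppargc1b 17.3% ± 5.53; Ppargc1a led in 4 libraries and Pprc1 in 1, and with the median length Pprc1 led at 71.8%. Myf6 held 77.6% ± 4.401 of the myogenic factors, the adult fibre's form, with Myog at 12.2% ± 0.886 and Myod1 at 9.39% ± 4.54. Mef2c held 74.98% ± 3.18 of Mef2, and Ppp3cb 62.3% ± 2.46 of the calcineurin catalytic subunits. Ppp1r3c held 82.3% ± 8.74 of the subunits that target phosphatase 1 to glycogen.

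**Figure D3:**
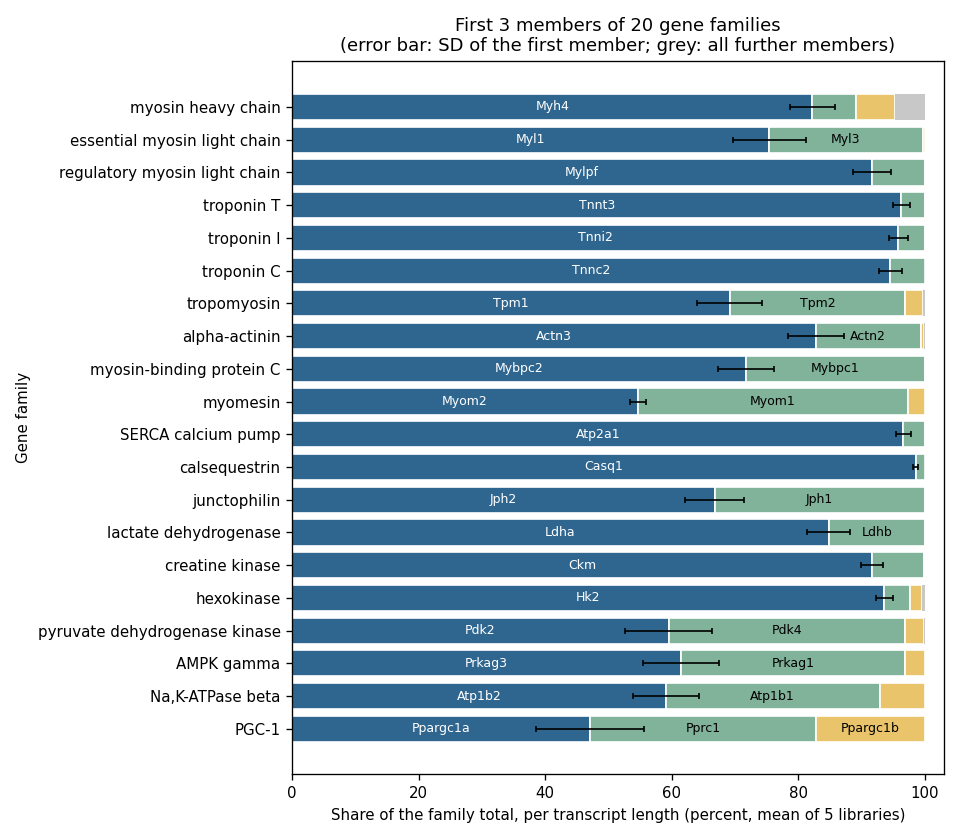
Mean per-length share (x axis, percent of the family total, n = 5 libraries) of the 3 highest members of 20 gene families, with the SD of the first member as error bar and all further members in grey. Myh4, Tnnt3, Tnni2, Atp2a1 and Casq1 hold most of their families, while Myom2 (54.7%), Pdk2 (59.5%), Atp1b2 (59.01%) and Ppargc1a (47.1%) share theirs.

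Within a library, 13 fast genes were set against their slow paralogues, and the fast member was higher per length in all 13 pairs and all 5 libraries. The mean log2 ratio ran from 1.35 ± 0.34 for Mybpc2 over Mybpc1 to 6.10 ± 0.35 for Casq1 over Casq2. That is 2.56 to 68.6 times. The two-sided exact sign-flip permutation test gave p = 0.0625 for each pair, also after Benjamini-Hochberg adjustment over the 13 pairs; this is the smallest p that 5 libraries allow, so no pair could pass 0.05. For Myh4 over Myh7 the log2 ratio was 4.73, 5.32, 4.09, 4.61 and 4.52 in controls 1 to 5. For Tnnt3 over Tnnt1 it was 5.03, 5.33, 4.07, 4.99 and 4.39. For Atp2a1 over Atp2a2 it was 5.09, 5.66, 4.23, 4.92 and 4.72.

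The libraries kept nearly one order in these ratios. Control 2 had the highest ratio in 12 of 13 pairs and control 3 the lowest in 12 of 13; the exceptions were Myl1 over Myl3, highest in control 1 and lowest in control 5. The levels of the slow members had the reverse order. In 12 of 13 pairs the slow gene was highest per length in control 3, and in 10 it was lowest in control 2. By CPM, 766 of the 7684 well-counted genes were highest in control 3 and 1627 lowest in control 2. The fast gene was highest per length in control 2 in 9 pairs, and lowest in control 3 in 6 and in control 5 in 5. Over all 7684 well-counted genes the numbers by CPM, in the same order, were 1367, 549 and 2247. Tnnt1 stood at 1188, 1109, 2291, 1320.0 and 2025 TPM in controls 1 to 5, and Tnnc1 at 1446, 1329.8, 3031, 1867 and 2826, so that controls 3 and 5 were high. The fast Tnnt3 stood at 38910.1, 44533, 38564, 41956 and 42521 TPM. With the length trend removed from each library, control 2 was again highest in 12 pairs, and control 3 was lowest in 13. The pairs are not independent, since each library contributes to all of them, and the part of the muscle that was sampled is not given in the labels.

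**Figure D4:**
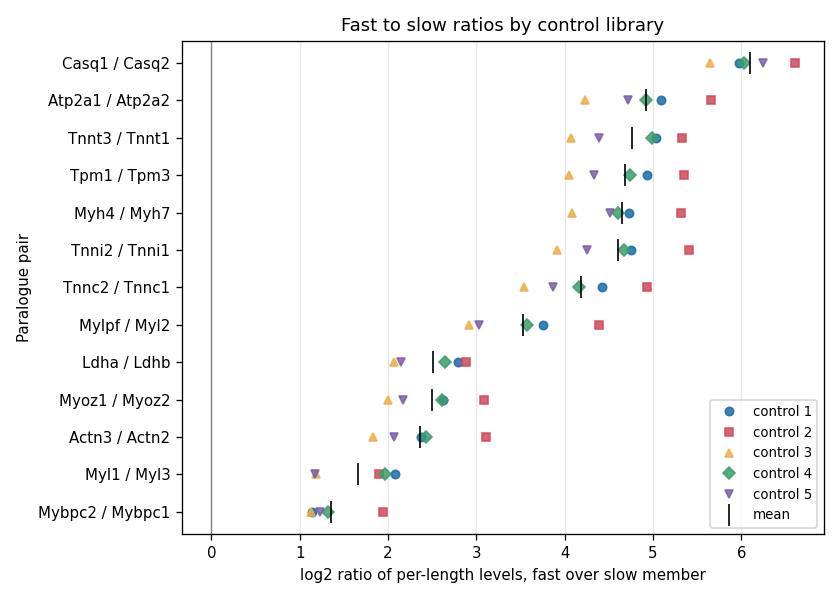
Log2 ratio of the per-length levels of the fast over the slow paralogue (x axis) for 13 pairs, with 1 symbol per control library and a bar at the mean. All ratios lie above 0; squares (control 2) lie furthest right in 12 pairs and upward triangles (control 3) furthest left in 12.

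Markers of the labelled tissue were high: the 11 muscle fibre genes of the list summed to between 138432 and 175073 CPM. Other cell types gave less. The 12 fibroblast genes summed to 4310.4 to 5225 CPM, led by Gsn (1895 ± 126 CPM), Col1a2 and Dcn. Gsn, an actin-severing protein, is also used by fibres. The 9 tendon genes summed to 1423, 920.4, 1338, 1053 and 845 CPM in controls 1 to 5, led by fibromodulin (Fmod, 677, 449.9, 623, 501 and 393 CPM) and Thbs4 (424, 261, 379, 329 and 258 CPM), and were highest in control 1 and lowest in control 5. The 13 endothelial genes, all well counted, summed to 717 to 1053 CPM, or 524 to 609 without Fabp4, which fat cells also make. The steadiest of them, Cdh5 and Eng, stood at 75.9 ± 4.38 and 64.4 ± 3.56 CPM. The 11 smooth muscle and pericyte genes included desmin, a fibre gene, which held most of their sum, while smooth muscle actin (Acta2) stood at 108, 94.1, 206, 150.3 and 192 CPM and the pericyte gene Rgs5 at 105, 50.4, 64.1, 97.6 and 26.8 CPM. Macrophage genes summed to 180.0 to 239 CPM, with the lysozyme gene Lyz2 at 49.3 ± 9.89.

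Schwann cell genes, of nerve in the muscle, summed to 348, 206, 479, 334 and 549.7 CPM. Pmp22, a myelin protein of peripheral nerve, stood at 118, 69.3, 145, 108 and 169.7 CPM in controls 1 to 5. All 11 members were lowest in control 2, and in 10 of them controls 3 and 5 were the 2 highest, the libraries in which slow Tnnt1 and Tnnc1 were high too. Only 5 members were well counted, and all 5 had both traits. Over all well-counted genes, 1627 of 7684 were lowest in control 2 and 1622 had controls 3 and 5 as the 2 highest. The part of nerve in the levels of the slow genes was not tested. Genes of the neuromuscular junction summed to 209.6 to 239 CPM, with acetylcholinesterase (Ache) at 43.5 ± 4.18 CPM, and their sum varied by 1.14 times at most. Satellite cell genes were low, with the muscle cadherin Cdh15 at 26.3 ± 6.52 CPM and Pax7, the marker of these stem cells, at 1.88 CPM.

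Some types were nearly lacking. Granulocyte and mast cell genes summed to at most 45.5 CPM, mostly mast cell proteases such as Mcpt4 (9.29 ± 3.37 CPM). Lymphocyte genes summed to at most 6.38 CPM, cartilage and bone genes to at most 18.6 and liver genes to at most 1.31. Of the heart genes, Myl7 had 0 counts, Mybpc3, Nppa and Nppb lay below 1 CPM in every library, and Myh6, the alpha-cardiac myosin, stood at 275, 262, 601, 385 and 491 CPM, highest in control 3 and lowest in control 2; 22.6% of its words are shared with other genes, mainly Myh7. Erythroid genes were led by Beta-s, a beta-globin, at 51.8, 55.8, 50.1, 69.2 and 52.96 CPM, of whose words 65.8% occur in another globin gene. The globin genes Hba-a1 and Hba-a2 had 0 counts, and as most of their sequence is shared this is no measure of blood.

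Between the libraries, the 7684 well-counted genes varied with a median coefficient of variation (CV) beyond counting error of 12.6%, and quartiles of 8.13% and 18.8%. The highest library was at least 2 times the lowest in 654 of them, or 8.51%, at least 4 times in 76 and at least 10 times in 10. Of the 654 genes, 323 were highest in control 1 and 166 in control 5, against 38 in control 2, 52 in control 3 and 75 in control 4. Without control 1 the count was 380 genes, without control 5 it was 327, and with the length trend removed 404. The labels name no batch, so no values within batches could be given.

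The 30 most variable genes were read in 4 groups, with Elovl6 and Rrad each high in 1 library alone. The largest holds genes of long transcripts that were highest in control 1 and lowest in control 5. Over all 654 genes, 272 (41.6%) had this pattern, with a median longest transcript of 6812 bases. The opposite pattern, highest in control 5 and lowest in control 1, had 113 genes with a median of 1254 bases. Pdpr, a regulator of pyruvate dehydrogenase phosphatase, stood at 70.9, 27.3, 18.8, 40.6 and 5.04 CPM in controls 1 to 5. Bmpr2, a receptor for bone morphogenetic proteins, stood at 34.97, 10.5, 8.67, 19.8 and 4.74 CPM, and Cpeb4, a translation regulator, at 40.4, 17.5, 12.9, 29.9 and 2.87. In each the order was control 1, control 4, control 2, control 3, control 5. Nos1, the neuronal nitric oxide synthase of the fibre membrane (29.9, 13.8, 9.66, 20.2 and 2.82 CPM), Deptor, an inhibitor of mTOR (29.5, 11.8, 13.7, 24.2 and 2.27 CPM), and Nrip1, a nuclear receptor corepressor (32.03, 11.9, 12.4, 27.4 and 3.28 CPM), were likewise highest in control 1 and lowest in control 5. So were Arl5b, Gm9766, Hipk2, Nbeal1, Zbtb38, Trip11 and Dennd4c, and Zbed6, whose whole sequence lies within another gene model. The means of Arl5b and Hipk2 passed the limit of 10 CPM only through control 1, so their high CVs partly follow from the limit. With the length trend removed the CVs fell by unequal amounts: the CV of Pdpr was 76.9% before and 72.4% after, that of Bmpr2 76.6% and 58.2%. The fall was larger for Nbeal1, from 65.7% to 44.7%, the lowest value of the group. The cause of these differences was not tested.

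The second group holds genes of fat and fatty acid synthesis, high in controls 4 and 5. Fasn, fatty acid synthase, stood at 80.04, 115, 86.7, 741 and 247 CPM in controls 1 to 5, a CV of 111%. Control 4 was by far the highest and control 5 the second. Elovl6, which lengthens fatty acids, stood at 3.800, 4.97, 2.68, 43.6 and 6.25 CPM, high in control 4 alone. Only through control 4 did its mean pass the limit of 10 CPM, so a high CV followed from the limit. Scd1, the stearoyl-CoA desaturase, stood at 239, 341, 359, 1369.7 and 868 CPM, and Pck1, which fat cells use to make glycerol, at 23.6, 30.2, 29.2, 169.9 and 112. Thrsp, a regulator of lipogenesis, stood at 8.596, 17.5, 17.5, 87.8 and 61.98 CPM, and Acaca, Slc25a1 (the citrate carrier), Tkt (transketolase), Prkar2b and Cfd (adipsin, a fat cell protein) showed the same 2 highest libraries. The means of Prkar2b and Slc25a1 passed the limit of 10 CPM only through controls 4 and 5, so their high CVs partly follow from the limit. Other genes hold 52.6% of the words of Acaca, so its level is uncertain. Of the 15 adipocyte markers, controls 4 and 5 were the 2 highest in 13. Among the 11 well-counted markers they were so in 10, against 338 of the 7684 well-counted genes. Of the 11 that were well counted, 9 varied at least 2 times, where 8.51% of well-counted genes did, with a median CV of 60.4%. Among them Adipoq, the hormone adiponectin, stood at 18.1, 19.98, 27.9, 63.00 and 57.3 CPM and Cidec, a fat droplet protein, at 16.8, 22.9, 41.2, 78.1 and 75.3. Of 6 brown fat genes, 3 had the same 2 highest libraries, but 0 of the 2 that were well counted did. The 6 genes summed to 271, 359, 387, 352 and 548 CPM, so control 4 was not high in the sum. Ucp1, the uncoupling protein, stood at 0.362, 0.607, 0.237, 16.7 and 7.11 CPM and Cidea at 1.58, 1.37, 2.05, 18.6 and 10.4. The mean of Ucp1 reached 1 CPM only through controls 4 and 5. Srebf1, a transcription factor of lipogenesis, stood at 60.04, 86.1, 50.5, 69.4 and 52.6 CPM and did not share the pattern. The summed adipocyte list was 4123, 4058, 5177, 7133 and 6186 CPM, of which Car3, also a muscle gene, made up 3032, 2914, 3681, 3915 and 3732. Without Car3 the highest library was 2.95 times the lowest, against 1.76 times with it; what fat tissue in the sample contributes to the lipid genes was not tested. Lipid synthesis in fibres and in fat cells cannot be told apart in these libraries.

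The third group, of Ddit4, Mt1, Odf3l2 and Hp, was highest in control 5. Control 3 was second in all of them but Hp, in which control 4 was. Ddit4, an inhibitor of mTOR that glucocorticoids and low energy induce, stood at 41.04, 41.7, 129, 92.1 and 217 CPM in controls 1 to 5, and the metallothionein Mt1, which metals and glucocorticoids induce, at 56.2, 47.4, 128, 106 and 244 CPM. In both, control 5 was highest and controls 1 and 2 lowest. Of the list of glucocorticoid and metal stress genes, 9 of 15 well-counted members varied at least 2 times, where 8.51% of all well-counted genes did. In 7 of the 15, controls 3 and 5 were the 2 highest, against 1622 of 7684 well-counted genes. Fkbp5, a chaperone of steroid receptors, stood at 38.9, 48.4, 129.8, 64.7 and 126 CPM, and Foxo1 at 45.6, 39.3, 103, 66.7 and 108 CPM. Tsc22d3, the glucocorticoid-induced leucine zipper, stood at 409, 445, 704, 562 and 886 CPM, but Klf9 at 168, 109, 132, 166 and 73.1 CPM had its lowest value in control 5, and Sgk1 varied little at 195, 207, 202, 255 and 196 CPM. The summed level of the list was 1.56 times higher in the highest than in the lowest library with the length trend removed, and 1.63 times before. Odf3l2 (17.7, 29.5, 82.8, 50.8 and 142 CPM) and the acute phase gene Hp, haptoglobin (6.24, 11.8, 21.2, 25.3 and 45.96 CPM), were also highest in control 5. The longest transcripts of this group run from 1085 bases (Mt1) to 1755 (Ddit4), against a median of 3302 over all well-counted genes. With the length trend removed, the CV of Mt1 was 52.6% (67.8% before), and that of Ddit4 61.3% (70.1%). For Odf3l2 it was 64.7% (77.2%) and for Hp 58.8% (69.2%). Rrad, a calcium channel regulator of the RGK family, was high in control 3 alone, at 8.32, 7.602, 27.99, 8.32 and 12.04 CPM. Only through control 3 did its mean pass the limit of 10 CPM, so its high CV partly follows from the limit.

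The fourth group is a single gene of skin. Krt10, a keratin of the upper epidermis, stood at 3.62, 67.97, 4.89, 4.57 and 4.59 CPM in controls 1 to 5. Its CV of 166% was the largest of all well-counted genes. Its mean passed the limit of 10 CPM only through control 2, so a high CV followed from the limit. The loricrin gene Lor stood at 0, 39.6, 0.158, 0.229 and 0.504 CPM and Krt5, a keratin of the basal layer, at 0, 26.2, 0, 0.0457 and 0.0504 CPM. The 16 keratinocyte and hair markers summed to 22.1, 249, 17.6, 16.6 and 18.4 CPM. Of the 12 members with a mean of at least 1 CPM, 11 were highest in control 2. Trp63 was the exception at 15.5, 12.01, 9.303, 8.14 and 8.67 CPM. Genes such as Lor and Krt5 reach a mean of 1 CPM only through control 2, so this count is partly set by the limit. Of the 2 well-counted members 1 was highest in control 2, as were 1367 of all 7684 well-counted genes. The hair shaft and sheath genes Krt71, Krt25 and Krt27 had 0 counts in all 5. The whole class of keratin and hair genes was 0.0352% of the counts of control 2.

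**Figure D5:**
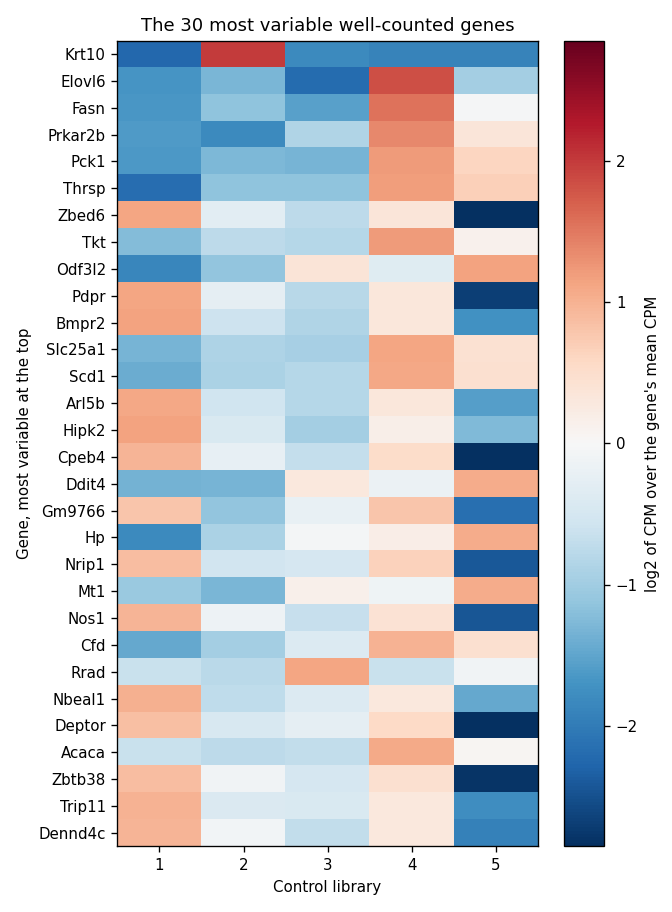
Level of the 30 most variable well-counted genes in controls 1 to 5 (columns) as the log2 of CPM over the gene's mean CPM, from blue (below the mean) to red (above). Pck1, Scd1 and other lipid genes are red in controls 4 and 5, but Fasn and Elovl6 in control 4 alone. Pdpr, Bmpr2, Cpeb4 and other long genes are red in control 1 and blue in control 5. Ddit4, Mt1 and Hp are red in control 5, and Krt10 is red in control 2 alone.

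Immediate early genes, which an exercise bout can induce, also varied: 22 of 51 well-counted members differed at least 2 times between libraries, with a median CV of 25.8%, against 8.51% and 12.6% over all well-counted genes. Egr1, a zinc finger factor, stood at 755, 470.0, 180.3, 535 and 276 CPM in controls 1 to 5, highest in control 1 and lowest in control 3. Atf3 stood at 159.6, 96.5, 208, 312 and 192 CPM, highest in control 4, and Fos at 690.1, 450.3, 342, 643 and 547 CPM. Dusp1, a MAP kinase phosphatase, varied little at 336, 383, 358, 374 and 418 CPM, as did Nr4a1. The libraries did not keep 1 order over the class. Its 51 well-counted members were highest in control 5 in 22 cases, in control 1 in 13, in control 4 in 10, in control 3 in 4 and in control 2 in 2. Over all 7684 well-counted genes the numbers in the same order of controls were 2585, 2157, 809, 766 and 1367, so controls 5 and 1 led there too.

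Inducible heat shock genes varied at least 2 times in 4 of 14 members, beside 8.51% of all well-counted genes. Hspa1a and Hspa1b, near-identical copies whose reads are shared, stood at 80.9, 79.5, 143, 245 and 180.5 and 81.5, 81.4, 127, 232 and 157 CPM, both highest in control 4. Dnajb1 stood at 124, 64.4, 75.1, 195 and 122 CPM, and 11 of the 14 genes were lowest in control 2, as were 1627 of the 7684 well-counted genes. Cryab, a small heat shock protein of muscle, had the most counts at 1046 ± 262 CPM. Of the 9 genes of the amino acid and unfolded protein response that were well counted, 2 varied at least 2 times, against the same 8.51%, and the chaperone Hspa5 was steady at 305 ± 16.9 CPM.

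Of 16 well-counted clock genes, 7 varied at least 2 times, beside 8.51% of all well-counted genes. Nr1d1, a repressor of the clock loop, stood at 201, 263, 110.1, 130.3 and 85.6 CPM in controls 1 to 5, and Per2 at 27.8, 8.65, 30.9, 39.3 and 27.5 CPM. Arntl, the clock's activator BMAL1, was just below the well-counted limit at 9.41, 20.2, 7.41, 5.39 and 7.41 CPM, and its partner Npas2 stood at 0.905, 2.26, 0.315, 0.183 and 0.454 CPM. Control 2 was highest in Nr1d1, Arntl and Npas2 and lowest in Per2, and was lowest in 10 of the 16 genes (1627 of 7684 over all well-counted genes). Tef, with the most counts, varied from 325 to 411 CPM. The time of day of sampling is not in the labels.

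Genes of muscle wasting and secreted factors were also listed. Fbxo32 and Trim63, the ubiquitin ligases of atrophy, stood at 341, 409, 304, 329 and 364 and 197, 286, 339.6, 269 and 405 CPM in controls 1 to 5, and 4 of 15 atrophy genes varied at least 2 times, with a median CV of 20.97%, against 8.51% and 12.6% over all well-counted genes. Myostatin (Mstn), which restrains muscle growth, stood at 117, 69.6, 83.3, 122 and 47.5 CPM, and 2 of 10 well-counted myokine and growth factor genes varied at least 2 times, with a median CV of 22.02%. Il6 lay at 0.252 to 1.33 CPM and Fgf21 had 3 counts over all libraries. Interferon response genes were low, with 107 ± 8.27 CPM over 23 genes, and cell cycle genes lower, with 46.3 ± 1.699 CPM over 18.

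At the other end, 221 well-counted genes varied by no more than counting error. The one with the most counts, Eif4a2, an RNA helicase of translation, stood at 360.1, 357, 355, 357 and 363 CPM in controls 1 to 5. Nudcd3 stood at 142, 139.6, 145, 145 and 142 CPM, and Lman2, a cargo receptor of the secretory path, at 105, 104, 104, 102 and 102. Ccpg1, Dnajc21, Cog6, Eif2ak1, Urgcp, Ppp2r2a and Cobl were as steady, at means from 104 down to 65.7 CPM; the remaining 2 are gene models without a name. Of 15 genes often used as references, 12 were well counted and 1 of them, the transferrin receptor Tfrc, varied at least 2 times (8.51% of all well-counted genes did), at 259, 120.3, 277, 370.4 and 177 CPM. Sdha, a subunit of succinate dehydrogenase, stood at 921, 984, 1029, 951 and 972 CPM and Actb at 484, 462, 414, 438 and 479 CPM. Gapdh stood at 4.61, 6.31, 5.400, 4.71 and 4.79 CPM, a level that cannot be read as its abundance, as 82.5% of its words occur in other genes.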

How the data were processed

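The deposited file holds raw counts per gene symbol, which the authors made on mm9; the submitters' processing notes name bcl2fastq 1.8.4, TopHat without a version, Bowtie 0.12.7 and HTSeq 0.6.1. Neither the annotation nor the strand setting is stated, so antisense and overlapping genes may share reads. Only the 5 control columns were used. Counts were scaled by TMM (edgeR 4.0.16, R 4.3.3) to CPM. Shares are percentages of a library's total count. Per-length levels used the longest GENCODE M21 transcript, found for 22796 genes; genes without one held 1.095% of counts. Of 891 listed symbols 877 were found, 16 through RefSeq synonyms. Sequence shared between genes was counted in 50-base words, from 20% of which a level was called uncertain.

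Spread was measured in genes with a mean of at least 10 CPM, as the CV after subtracting the Poisson variance, and was tested on simulated counts. Fast and slow genes were compared by the exact sign-flip permutation test (scipy 1.17.1). A chi-square checked for libraries deposited more than once, and Dixon's criterion for single libraries far from the rest. A count of 0 allows up to 3 counts. This limit covers counting error only, because the cDNA was amplified and a read is not a molecule. Genes named are the 25 highest by CPM and 15 per length, 2 members per family, both of each pair, the 30 most and 12 least variable (ties at 0 by level) and up to 4 members per list by level or variation; some others were named after their values were seen. The gene lists and measures were chosen with earlier results of these data known. Promoter sequences come from RefSeq. A few listed genes are not reported here.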

Additional observations from a re-analysis of the deposited data

Results flagged for a closer look

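Among 154 values examined by Dixon's test for 5 libraries, 12 had 1 library far from the other 4. Chance would give about 1 in 20 of independent values. These were not independent, and some genes were examined because they varied most, so the number is only a description. Of these, 8 lay in control 2. Skin transcripts stood out there, with Krt10 at 67.97 CPM (the others 3.62 to 4.89), the keratinocyte and hair list at 249 CPM (16.6 to 22.1) and the keratin and hair class at 0.0352% of counts (0.00294% to 0.00373%). Genes of fast fibres stood out as well, with Actn3 at 12655 CPM (7959 to 9192) and Pygm at 10621 CPM (8410.3 to 9025). Mybpc2 held 79.4% of its family (68.6% to 71.5%), with a log2 ratio to Mybpc1 of 1.94 (1.13 to 1.32). The lactate transporter Slc16a3 held 84.8% (74.4% to 77.3%).

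In control 4 Fasn stood at 741 CPM (80.04 to 247 in the others) and Elovl6 at 43.6 CPM (2.68 to 6.25). In control 3 Rrad stood at 27.99 CPM (7.602 to 12.04). In control 5 the share of Aldoa in the aldolases was 99.9985%, a difference from the others in the third decimal.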

How the results depend on the processing

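No paired analysis was possible because only 1 group was described. Per kilobase, the 10 and 100 most abundant genes held 31.2% and 53.7%, and 67.6 genes held 50%. Class shares per kilobase were 31.4% (sarcomere), 6.89% (calcium), 7.502% (glycolysis), 6.604% (respiratory chain), 2.89% (creatine), 1.37% (ribosomal proteins), 1.299% (ubiquitin), 0.977% (translation), 0.753% (heat shock), 0.646% (matrix), 0.587% (immediate early), 0.143% (non-coding), 0.0269% (haem) and 36.1% (unclassed). With Rn45s left out of the totals, translation factors held 1.12% of counts. Genes varying at least 2 times numbered 1906 from a mean of 1 CPM, 200 from 50 CPM, 4083 with no filter, 404 without the length trend and 277 without controls 4 and 5. They numbered 206 without controls 1 and 5, a choice made after seeing the data, as were unshared words in place of length and the length trend for list sums and pair orders. Leaving out 1 library gave 327 to 625. The median CV was 9.35% without the length trend, 9.46% without controls 1 and 5, 15.1% by edgeR's tagwise estimate, which draws genes together, and 10.5 to 13.8% with 1 library left out. Of the 30 most variable genes, 11 stayed without controls 4 and 5, 13 without 1 and 5, and 16 to 24 with 1 library left out. With the median transcript length the leader changed in 2 families, to 47.2% for Pdk2 and 24.3% for Ppargc1a; only the length differs there. All 104 alternative values of the 13 fast to slow ratios had the same sign. The mean share of keratin and hair genes, 0.00972%, rests on control 2, and the other libraries lay between 0.00294% and 0.00373%. List sums without Car3, Fabp4 or Des were added after seeing the data. Other causes were not tested.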
